A study of Mus musculus with 2 samples.

Results

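The transcripts described here are those of 9 genes whose products belong to photoreceptors, the light-sensing neurons of the retina, read in RNA of the mouse lens. The genes are Sag, Pdc, Gnat1, Rcvrn, Neurod1, Crx, Pde6b, Prph2 and Rbp3. They were found as the probe sets of the array whose annotation gives exactly 1 gene symbol, that symbol being 1 of the 9. This gave 12 probe sets, 2 each for Neurod1, Crx and Rbp3 and 1 for each of the other 6 genes, out of 34958 probe sets that name 18194 genes. No probe set was annotated to 1 of these genes together with another gene. Lenses of wild-type C57/BL6 mice were pooled at 7 days (P7) and at 60 days (P60) after birth, with no treatment named, and total RNA of each pool was hybridised to 1 Affymetrix array. How many animals made up a pool, and of which sex, is not given in the sources used here. Each age therefore has 1 value per probe set, no replicate and no test, and differences are described by their size.

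Rod photoreceptors detect light through a G-protein cascade. A light-activated receptor turns on transducin, whose alpha subunit is encoded by Gnat1. Transducin in turn activates a phosphodiesterase, with its beta subunit from Pde6b, that removes cyclic GMP and closes ion channels. Arrestin (Sag) and recoverin (Rcvrn) end and tune the response, and phosducin (Pdc) binds the beta and gamma subunits of transducin. The genes are switched on during retinal development under the transcription factors Otx2, Crx and Nrl, and Neurod1 acts in photoreceptor development and upkeep. Several of these transcripts are also made in the pineal gland. They are not among the transcripts by which lens cells are usually defined.

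CRX binds DNA at sites around the letters TAATCC, and NRL binds elements that contain TGCTGA. The RefSeq promoter table (GRCm38.p6) held 7 of the 9 genes, without Gnat1 and Rcvrn. Both motifs were searched on both strands in the 250 bases upstream of each start. TAATCC occurred in 3 of the 7 promoters, those of Sag, Crx and Rbp3, against 6.25% of all 32851 promoters in the table. TGCTGA occurred in 4 of the 7, those of Sag, Neurod1, Pde6b and Rbp3, against 16.1% of all promoters. No 2 of these matches overlapped. A match describes the letters and not a bound site, and its absence says only that the letters were not in this window. The 120 bases before the start are printed for the 3 promoters with TAATCC, which belong to genes with log2 ratios below 0. Neurod1 and Pdc, whose promoters held no TAATCC in this window, had ratios below 0 as well. Gnat1 and Rcvrn had no promoter to search, and a link of motif and ratio was not tested. Also printed are Neurod1 and Pde6b, the genes whose promoters held TGCTGA without TAATCC and whose log2 ratios had opposite signs. Each runs 5′ to 3′ on the gene's strand, with matches in capitals. A match on the opposite strand reads GGATTA for TAATCC and TCAGCA for TGCTGA.
Sag, chr1:87803560-87803679, + strand: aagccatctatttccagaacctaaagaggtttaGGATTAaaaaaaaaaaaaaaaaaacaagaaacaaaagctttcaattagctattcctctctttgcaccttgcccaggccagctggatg
Crx, chr7:15879956-15880075, - strand: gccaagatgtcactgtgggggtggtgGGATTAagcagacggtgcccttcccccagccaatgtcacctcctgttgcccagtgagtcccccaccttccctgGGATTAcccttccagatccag
Rbp3, chr14:33953883-33954002, + strand: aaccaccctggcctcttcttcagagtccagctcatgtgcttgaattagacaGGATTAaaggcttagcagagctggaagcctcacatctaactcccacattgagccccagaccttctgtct
Neurod1, chr2:79456637-79456756, - strand: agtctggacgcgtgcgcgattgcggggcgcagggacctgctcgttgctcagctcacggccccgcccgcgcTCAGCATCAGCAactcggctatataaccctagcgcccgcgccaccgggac
Pde6b, chr5:108388253-108388372, + strand: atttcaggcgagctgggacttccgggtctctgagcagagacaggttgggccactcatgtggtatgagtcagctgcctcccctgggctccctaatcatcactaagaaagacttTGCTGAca

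In Crx, TAATCC lay on the opposite strand 94 to 89 and 21 to 16 bases before the start. In Sag it lay 87 to 82 bases and in Rbp3 69 to 64 bases before the start, again on the opposite strand. Neurod1 held 2 copies of TGCTGA next to each other on the opposite strand, from 50 to 45 and from 44 to 39 bases before the start. Pde6b held it on its own strand, 8 to 3 bases before the start. The TGCTGA matches of Sag (187 bases upstream) and Rbp3 (155 bases upstream) lie outside the printed windows.

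The values are MAS5 signal intensities in arbitrary units on a linear scale. A floor was set at 103.9, the median over the probe sets of the pair of arrays, and lower values were raised to it before a log2 ratio of P60 over P7 was taken. Where 1 of the 2 values had to be raised, the fold is given as a minimum with the words "at least", and where both had to be, no ratio is given. The limit for counting a probe set or gene as higher or lower at P60 was 2-fold. With no replicate arrays, the only error at hand was the disagreement among probe sets that read 1 gene on these arrays. Its pooled SD was 0.58 on the log2 scale over 4239 genes, and it holds no variation among mice, pools or hybridisations.

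Of 10 lens marker genes, 9 read from 43365 (Mip at P60) to 97477 (Cryab at P60) on the 2 arrays, each by its brightest probe set. Their log2 ratios lay between -0.12 and 0.20. The crystallin gene Cryab had 86292 at P7 and 97477 at P60, but 36.5 and 105 on another probe set. Foxe3, a factor of the lens epithelium, was lower at P60 (288 at P7, 110 at P60, 2.61-fold). Both arrays had a trimmed mean of 500.0, and 52.2% of all probe sets at P7 and 47.8% at P60 lay above the floor. The hybridisation controls differed at the low end of the scale. The 6 probe sets for bioB read from 170 to 539 on the P7 array and from 1292 to 2541 on the P60 array, log2 ratios of 2.24 to 3.20. The 12 probe sets for bioC, bioD and cre, which read 3537 or more on the P7 array, had ratios between -0.64 and 0.35. The ratio of 5′ to 3′ signal was lower at P60 for beta-actin (0.785 and 0.606) and for the added dap transcript (0.0995 and 0.0262). The part of these array differences in the values below was not tested.

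Of all named probe sets, 58.9% lay above the floor at P7 and 54.7% at P60. Of the 12 photoreceptor probe sets, 8 (66.7%) did at P7 and 7 (58.3%) at P60, with 5 above it on both arrays. Among the 10 that were above it on at least 1 array, 5 were at least 2-fold lower at P60, where 10.6% of all 22462 such probe sets were. They belonged to Neurod1 (both), Pdc, Crx (1 of 2) and Rbp3 (1 of 2). Only that of Gnat1 was at least 2-fold higher, where 9.89% of all such probe sets were, and 4 lay within 2-fold. Counted by gene, with the probe set of highest mean log2 intensity, 3 of 8 measured genes were lower (background 9.44% of 13029 genes) and 1 was higher (background 11.5%). The median log2 ratio was -0.77 over these 8 genes and 0.02 over all measured genes. The 8 measured genes leave out Prph2. In these pooled tissues, fewer cells of a type and less RNA per cell cannot be told apart.

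**Figure D1:**
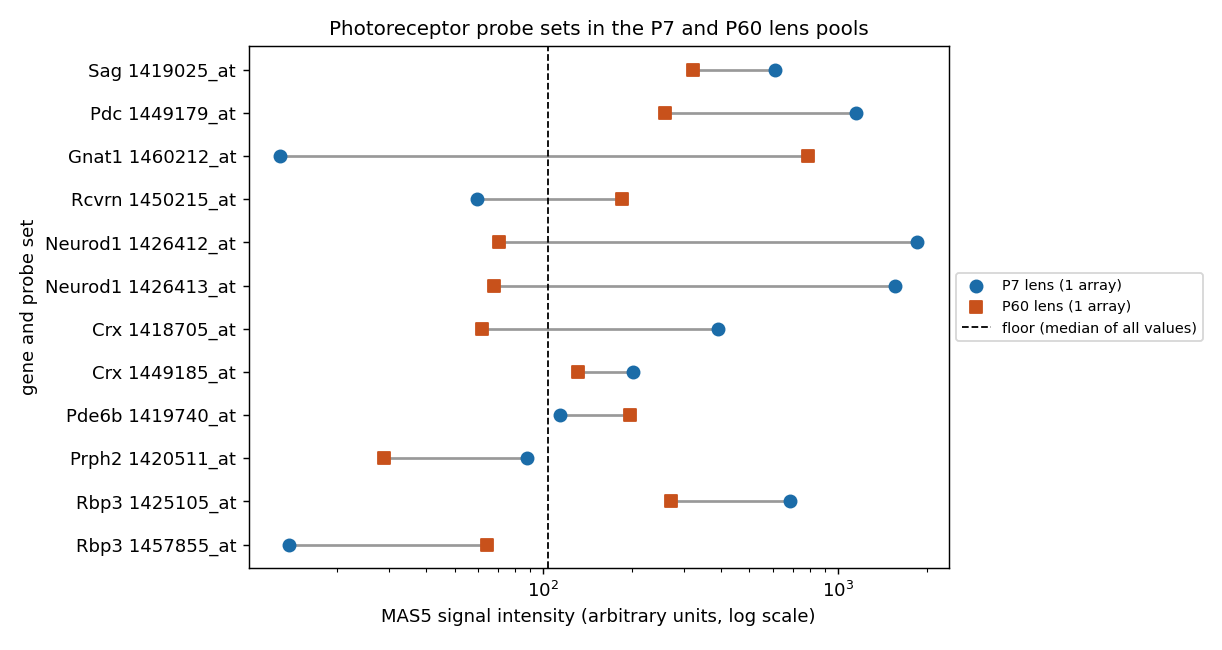
MAS5 signal intensity (log scale) of the 12 photoreceptor probe sets in the P7 lens pool (circles) and the P60 lens pool (squares), 1 array each, with the floor of 103.9 as a dashed line. Both Neurod1 probe sets cross from 1849 and 1552 at P7 to 70.5 and 67.8 at P60, below the line, Gnat1 crosses the other way, and Prph2 and 1 Rbp3 probe set stay under the floor at both ages.

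Of the 2 transcription factor genes, Neurod1 was counted as lower at P60 and Crx, by its brightest probe set, was not. Neurod1, a basic helix-loop-helix factor of neurons and endocrine cells, had intensities of 1849 at P7 and 70.5 at P60 on probe set 1426412_at. On its other probe set, 1426413_at, the values were 1552 and 67.8. Both probe sets thus went from far above the floor to under it, so that Neurod1 was at least 17.8-fold and at least 14.9-fold lower at P60 (log2 ratios of -4.15 and -3.90).

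Crx, the homeobox factor that activates photoreceptor genes, was read by 2 probe sets that differed in size. Probe set 1418705_at gave 390 at P7 and 61.9 at P60, which is at least 3.75-fold lower (log2 -1.91). Probe set 1449185_at gave 201 at P7 and 131 at P60, 1.53-fold lower (log2 -0.62). Only the first passed 2-fold, and the second, which stands for Crx in the counts by gene, stayed close to the floor at P60. With a floor of 200 neither passed 2-fold, and their ratios were -0.96 and -0.01.

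Of the 2 genes of the light-activated cascade, Gnat1 passed 2-fold and Pde6b did not. Gnat1, the rod transducin alpha subunit, had an intensity of 12.8 at P7, under the floor, and of 789 at P60, at least 7.59-fold higher (log2 2.92). The fold is a bound and rests on 1 probe set. On the values as deposited its log2 ratio was 5.94. Pde6b, the beta subunit of the rod phosphodiesterase, had 113 at P7 and 197 at P60, 1.73-fold higher, with the P7 value just above the floor.

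The regulators of the cascade split. Pdc, which encodes phosducin, had 1147 at P7 and 258 at P60, 4.44-fold lower (log2 -2.15), and both values were clearly above the floor. Sag, the rod arrestin that binds the activated light receptor, had 611 at P7 and 321 at P60. This is 1.90-fold lower (log2 -0.93), short of the 2-fold limit. Rcvrn, whose product recoverin is a calcium sensor of the recovery phase, went the other way, with 59.3 at P7, under the floor, and 185 at P60, at least 1.78-fold higher (log2 0.83). With a floor of 50, which both Rcvrn values exceed, its log2 ratio was 1.64.

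Of the genes for structure and retinoid handling, Rbp3 was measured and Prph2 was not. Rbp3, which encodes the retinoid-binding protein secreted between photoreceptors and the pigment epithelium, had 686 at P7 and 271 at P60 on probe set 1425105_at, 2.53-fold lower (log2 -1.34). Its other probe set, 1457855_at, was under the floor at both ages (13.8 and 64.6) and gives no ratio. Prph2, peripherin of the outer segment disc rim, was under the floor at both ages as well, with 88.0 at P7 and 28.8 at P60. A transcript was therefore not detectable for Prph2 above this floor, which does not show that it was absent.

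**Figure D2:**
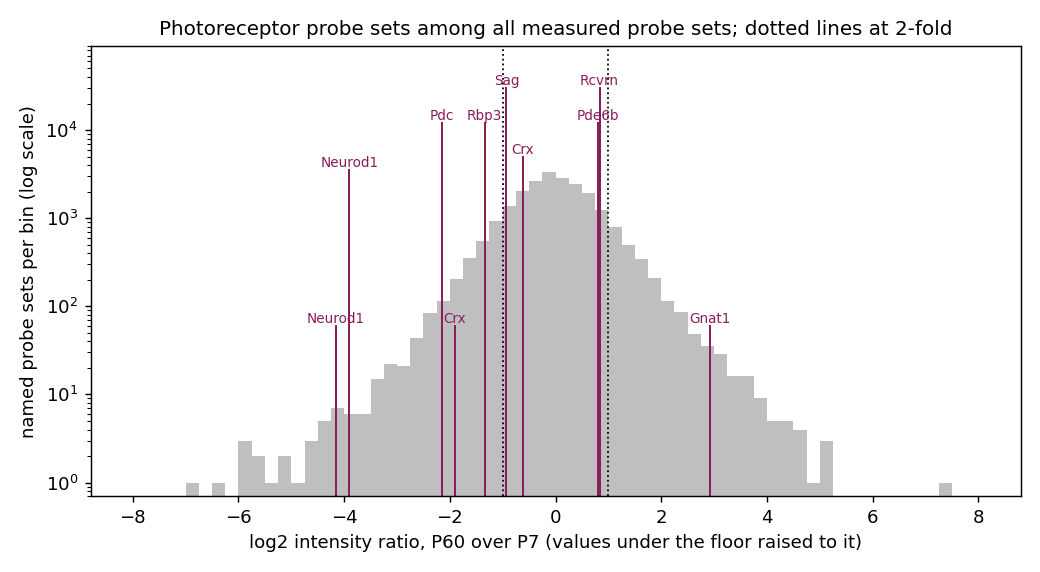
Histogram of the log2 intensity ratio, P60 over P7, of the 22462 named probe sets above the floor on at least 1 array (number per bin, log scale), with vertical lines, of no meaning in their height, at the 10 measured photoreceptor probe sets and dotted lines at 2-fold. The 2 lines for Neurod1 stand at -4.15 and -3.90 in the lower tail, Gnat1 stands at 2.92 in the upper tail, and Sag, Rcvrn, Pde6b and 1 Crx probe set lie inside the dotted lines.

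The genes nearest to each of these in their 2 floored log2 intensities were found by Euclidean distance over the 2 arrays. For Neurod1 they were Rian (1778 at P7, 34.0 at P60) and Grb10 (1768 and 99.7). For Pdc they were Slc46a3 (1157 and 261) and Ptprg (1107 and 270). The nearest to Sag were Notum and Tmem68, to Rbp3 Capn5 and Cenpt, to Crx Lrr1 and Trem1, and to Pde6b Smgc and Pcgf2. For Gnat1 they were Gpr146 (108 and 792) and Chdh (47.4 and 749), and for Rcvrn Cnksr1 and Adhfe1, with P7 values of 67.5 and 71.3 under the floor. With 2 arrays such likeness says little beyond the 2 values themselves.

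Other genes of the photoreceptor were taken from 4 lists, with 53 genes in all, of which 46 were named by probe sets of their own. Above the floor at either age were 34, of which 9 were at least 2-fold lower and 4 at least 2-fold higher at P60, where 9.44% and 11.5% of all measured genes were. Their median log2 ratio was -0.05, against 0.02 over all genes. The remaining genes of these lists were not analysed here. Of the listed genes Arr3, Gnat2, Pde6a, Pde6c, Rom1 and Otx2 also stand in the list of protein relatives.

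In the rod light response 9 of 14 named genes were measured, with a median of 0.18. Of these 1 was 2-fold higher and none 2-fold lower, beside 11.5% and 9.44% of all measured genes. Gnb1, the transducin beta subunit that other cells also make, had 4866 at P7 and 5062 at P60. On its other measured probe set it had 3158 and 1667, a log2 ratio of -0.92. Gnb5, which acts with Rgs9 to switch transducin off, had 380 and 769, 2.02-fold higher, but its other probe set had a log2 ratio of -0.19. Under either other scaling and with a pseudocount of 100, no gene of this list was 2-fold higher. Other subunits had low intensities at both ages. Gngt1, the rod transducin gamma subunit, had 172 and 153, Pde6g, the inhibitory subunit of the phosphodiesterase, had 229 and 297, and Pde6a, its alpha subunit, had 86.4 and 133. The rod genes Cnga1, Guca1a, Gucy2e, Grk1 and Slc24a1 were under the floor at both ages. Among the measured genes of this list Gnb5 had the highest ratio, 1.02 on the log2 scale, against 2.92 for Gnat1.

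In the cone light response 7 of 9 named genes were measured, and 6 lay within 2-fold. Of the 7, 1 was at least 2-fold lower and none higher, beside 9.44% and 11.5% of all measured genes. Pde6h, the inhibitory subunit of the cone phosphodiesterase, had 265 at P7 and 52.3 at P60, at least 2.55-fold lower. Its second probe set had a log2 ratio of -0.55, and with a floor of 200 no gene of this list was 2-fold lower. Gnb3, the cone transducin beta subunit, had 130 and 141.

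Among genes of the outer segment, its cilium and photoreceptor upkeep, 4 of 10 measured were at least 2-fold lower and 1 was higher, beside 9.44% and 11.5% of all measured genes. With a floor of 200, 1 of them was lower and none was higher. Prom1, a protein of membrane protrusions that is also made by other cells, had 762 at P7 and 112 at P60, 6.79-fold lower. Cdhr1, a photoreceptor cadherin, was at least 2.72-fold lower (283 and 95.4) and Tulp1, which acts in photoreceptor protein transport, 2.56-fold lower (294 and 115). Cacna1f, the calcium channel of photoreceptor synapses, was at least 2.33-fold lower (242 and 76.2). Aipl1, a chaperone of the phosphodiesterase, was at least 2.06-fold higher (90.7 and 214). Abca4, the retinoid flippase of outer segment discs, had 2387 at P7 and 1319 at P60, a log2 ratio of -0.86.

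All 8 named transcription factors of the photoreceptor lineage were measured at P7, and 5 of them at P60. Otx2, the homeobox factor that starts the photoreceptor lineage and activates Crx, had 859 at P7 and 7.57 at P60, at least 8.27-fold lower. Prdm1, which holds cells in the photoreceptor path, had 413 and 82.8, at least 3.97-fold lower. Nrl, the leucine zipper factor that sets rod identity, had 869 and 267, 3.25-fold lower. Rorb, a nuclear receptor upstream of Nrl, had 247 and 71.0, at least 2.38-fold lower, with its 3 probe sets from -2.17 to -1.25. These 4 of 8 factors were counted as lower at P60, where 9.44% of all measured genes were lower and 11.5% higher. Neurod1 was counted as lower too, while Crx passed 2-fold on 1 of its 2 probe sets. Rxrg, a retinoid receptor of cones, went the other way (218 and 1282, 5.88-fold higher), as did Nr1d1, a clock repressor that many tissues make (129 and 415, 3.23-fold higher). Mef2d had 626 and 1068 on its brightest probe set, a log2 ratio of 0.77, but its other probe sets went the other way (-0.23 and -0.36).

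Relatives of Neurod1 and other proneural factors had no member that was 2-fold higher, and 3 of 5 measured were at least 2-fold lower at P60, beside 9.44% of all measured genes. In this count Neurod4 and Atoh7 stand by probe sets that can match several transcripts (names ending in _s_at). Without probe sets of that kind (_s_at or _x_at), 1 gene was counted as lower. Neurod4 had 995 at P7 and 30.1 at P60, at least 9.58-fold lower. A second measured probe set, not of that kind, had 419 and 0.855, a log2 ratio of -2.01. Of the 3 probe sets of Neurod4, 2 were measured. In the count without _s_at and _x_at, Neurod4 stood by the unmeasured probe set. Insm1, a zinc finger factor of neuroendocrine cells, had 636 and 62.0, at least 6.12-fold lower, and its second probe set gave -1.39. Atoh7, which directs cells to the retinal ganglion fate, had 281 and 119, 2.36-fold lower. Neurod2 had 378 and 239, within 2-fold. Neurod6, Neurog1, Neurog2 and Neurog3 were under the floor at both ages.

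**Figure D3:**
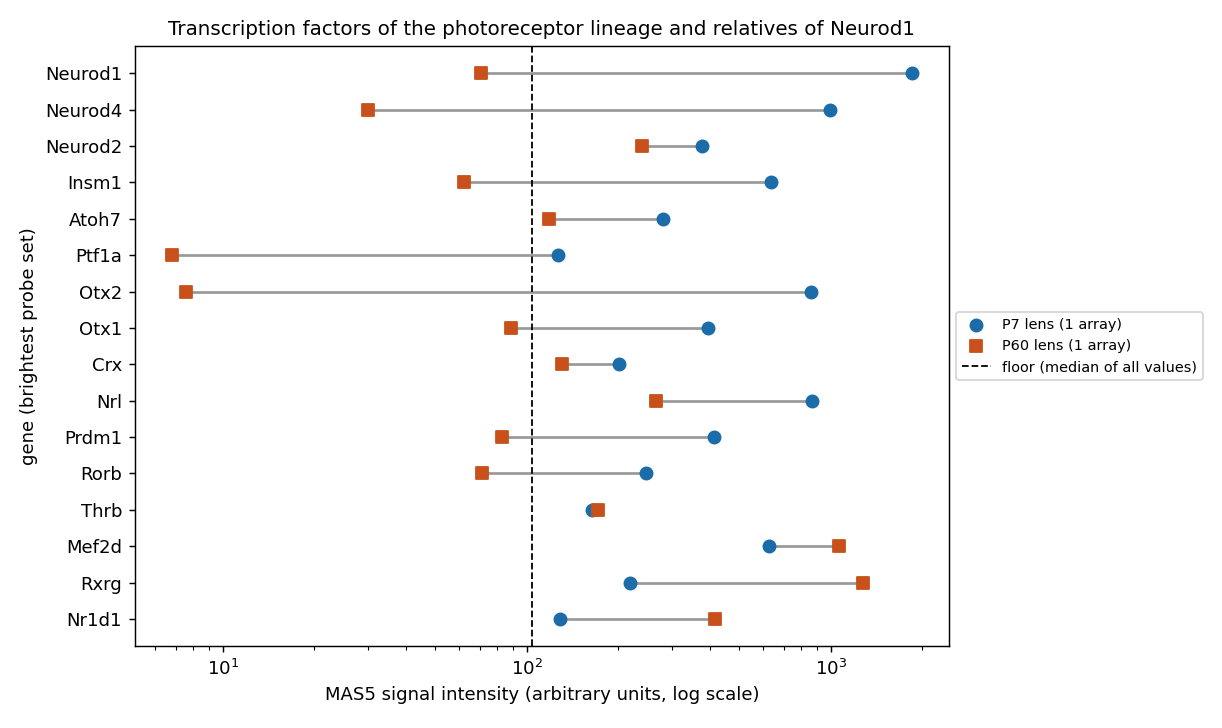
MAS5 signal intensity (log scale) of 16 transcription factor genes, each by its brightest probe set, in the P7 (circles) and P60 (squares) lens pools, 1 array each, with the floor of 103.9 as a dashed line. Neurod1, Neurod4, Insm1 and Otx2 lie between 636 and 1849 at P7 and left of the dashed line at P60. Rxrg, Nr1d1 and Mef2d read higher at P60, Mef2d on this probe set only.

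Among protein relatives of the 9 genes, 16 of 20 measured lay within 2-fold. Of the 20, 2 were at least 2-fold higher and 2 lower, beside 11.5% and 9.44% of all measured genes. Arrb1, the widely expressed arrestin related to Sag, had 277 at P7 and 974 at P60, 3.52-fold higher, while Sag itself was 1.90-fold lower. Vsnl1, a calcium sensor of the recoverin family, had 625 and 2002, 3.20-fold higher, with its other probe set at 1.30. Otx1, a relative of Crx and Otx2, had 395 and 88.8, at least 3.80-fold lower. The phosducin-like genes Pdcl and Pdcl3 had log2 ratios of -0.17 and -0.05, against -2.15 for Pdc. Gnai2, a G-protein alpha subunit of most cells, had 5572 and 7580, but 4317 and 2317 on its other probe set (log2 -0.90). For the pineal gland, Aanat, the enzyme that times melatonin synthesis, had 162 and 240, and Tph1 was under the floor at both ages.

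Markers of other retinal cells were read in the same pools. Of 7 bipolar cell genes, all measured, 1 was 2-fold lower by its brightest probe set, beside 9.44% of all measured genes. It was Cabp5, a calcium-binding protein of these cells, with 1380 at P7 and 365 at P60 (3.78-fold). Prkca had 1610 and 1086 (log2 -0.57), with its other probe sets at -1.03 and -0.27. Trpm1 had a ratio of -0.65 on its brightest probe set and of -2.03 on another. With the median of probe sets per gene, 2 genes of this list were lower, and with a floor of 50, 3 were lower and 2 higher. The summed intensity of the list was 3714 at P7 and 2006 at P60. Of 7 ganglion cell genes, 6 lay above the floor at P7 and none at P60. Among these 6, 2 were at least 2-fold lower, beside 9.44% of all measured genes. The sum of the deposited values went from 1450 to 496, with every value at P60 under the floor. The neurofilament gene Nefl was at least 4.42-fold lower (459 and 68.6), although its other probe set had a ratio of -0.05. Rbpms was at least 3.03-fold lower on its brightest probe set, whose name ends in _s_at. Its other measured probe sets had ratios of -0.92 and -0.87, short of 2-fold. Without _s_at and _x_at probe sets, 1 ganglion cell gene was counted as lower. Of 10 amacrine and horizontal cell genes, 5 were measured. In this list 1 gene was at least 2-fold lower and 1 higher, beside 9.44% and 11.5% of all measured genes. Tfap2b was at least 2.77-fold lower (288 and 58.0). Tfap2a, a factor that lens epithelium also makes, was 2.56-fold higher (1665 and 4255). The sum of that list was 3077 at P7 and 5506 at P60, and without Tfap2a it was 1412 and 1251.

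All 8 genes of the Müller glia list, retinal support cells, were measured, with 3 at least 2-fold higher at P60 and 1 lower. Of all measured genes, 11.5% were higher and 9.44% lower. The water channel gene Aqp4 was 4.65-fold higher (410 and 1907), the lipid carrier gene Apoe 3.50-fold (1466 and 5134) and Glul, glutamine synthetase, 3.46-fold (2033 and 7040). Rlbp1, a retinaldehyde-binding protein that also stands in the pigment epithelium list, was at least 2.25-fold lower (233 and 96.8). Dkk3 had 24471 and 19811 and several other genes of this list are made by tissues outside the retina. The sum was 30086 at P7 and 35238 at P60, with Dkk3 its largest part at both ages. Dkk3 was lower at P60, and without it the sum still rose.

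Of 8 retinal pigment epithelium genes, 5 were measured, and Rpe65, Lrat and Best1 were under the floor at both ages. Of the 5 measured, 2 were at least 2-fold lower and 1 higher, beside 9.44% and 11.5% of all measured genes. Stra6, the retinol uptake receptor, was at least 4.19-fold lower (435 and 37.1), whereas Ttr, a carrier of thyroid hormone and retinol, was 2.11-fold higher on its brightest probe set, with its 4 probe sets from -0.08 to 1.08. The sum of the list was 1754 at P7 and 2046 at P60, of which Ttr made up 667 and 1406. Without Ttr the sum was lower at P60. Vascular endothelial genes were lower at P60 in 6 of 7 measured, led by Cldn5 (1086 and 70.4, at least 10.5-fold), Esam (at least 5.26-fold) and Tek (at least 4.73-fold), and their sum went from 4038 to 926. Emcn (at least 2.71-fold), Kdr (2.50-fold) and Cdh5 (at least 2.46-fold) were lower too, and Egfl7 had a ratio of -0.83. Of 7 pigment cell genes, all measured, 2 were at least 2-fold lower and 1 higher, beside 9.44% and 11.5% of all measured genes. Tyrp1 was 4.20-fold and Pmel 2.15-fold lower, and Oca2 was 8.62-fold higher. Their list had a sum of 2445 at P7 and 3540 at P60, which without Oca2 was 2155 and 1038. The part of retinal, vascular or pigmented tissue in the photoreceptor values was not tested.

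**Figure D4:**
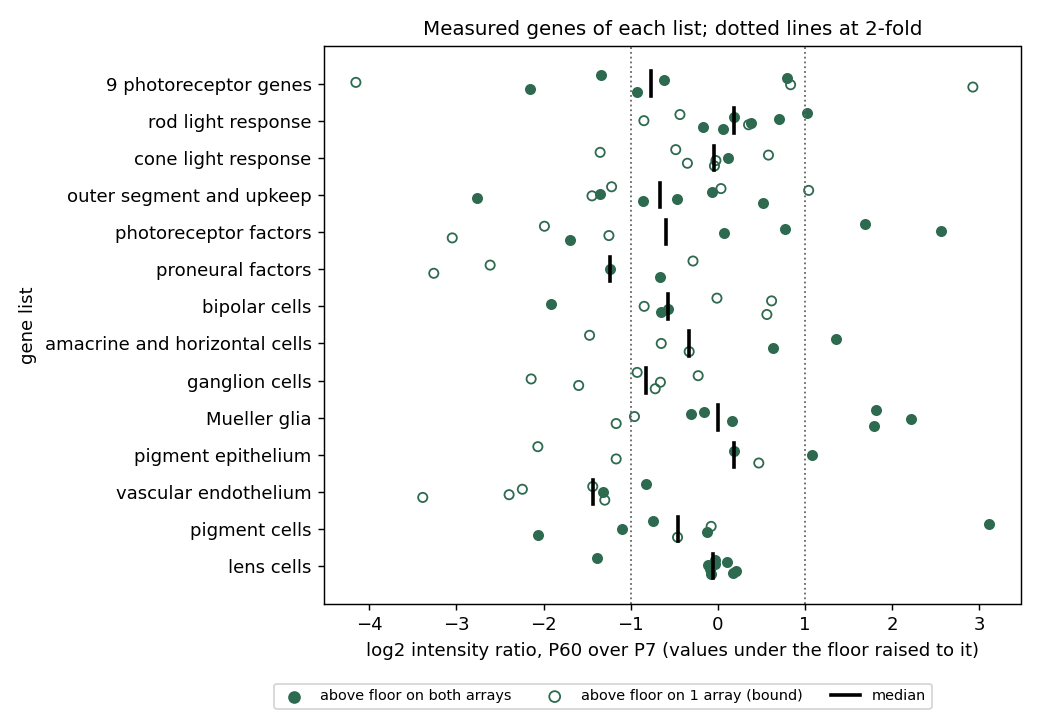
Log2 intensity ratio, P60 over P7, of each measured gene (brightest probe set) in 14 gene lists, with filled points for genes above the floor on both arrays, open points for bounds, black bars for the list medians and dotted lines at 2-fold. The medians are -0.77 for the 8 measured of the 9 photoreceptor genes, 0.18 for the rod light response, -1.24 for proneural factors, -1.44 for vascular endothelium and -0.06 for lens cells.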

How the data were processed

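RNA of 1 pool of lenses per age was read on 1 array per age, so the number of arrays limits the precision. The deposited values are MAS5 signal intensities on a linear scale, per the submitters' processing notes (version and settings: not given in the sources used here). Trimmed by 2% at each end, both arrays had a mean of 500.0. Of 45101 probe sets, a platform annotation gave 1 symbol for 34958, several for 932 and none for 9211. Symbols were updated by gene number for 34754. From the intensities, floored log2 ratios of P60 over P7 were computed with Python 3.11.15, numpy 2.4.6 and pandas 2.3.3, and the calculation was tested on simulated data. No test across ages was possible. Genes named are all 9 photoreceptor genes and, per list, those past 2-fold and the brightest, with the 2 nearest genes by intensity. Probe sets bind with different strength, so genes were not ranked by level, and list sums serve only to set P7 beside P60 (those without 1 gene were chosen after the values were seen). The members and lists were chosen with earlier results of these data known. List genes named outside that rule were chosen after their values were seen. Alternatives were other floors, a pseudocount, other scalings, other fold limits, other probe sets per gene and leaving out shared probe sets.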

Additional observations from a re-analysis of the deposited data

How the results depend on the processing

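No measured photoreceptor probe set changed sign under the alternatives run for it, but with a floor of 200 the Crx probe set 1449185_at came to -0.01, which is no difference. Over these, the log2 ratio of Pdc ran from -2.21 to -1.80, that of Rbp3 (1425105_at) from -1.39 to -1.08 and that of Sag from -0.98 to -0.76. The ratio of Neurod1 ran from -4.71 to -3.21 on 1426412_at, and that of Gnat1 from 1.98 to 5.94. With a floor of 200, 4 photoreceptor probe sets lay above it at P60, and 4 genes of the 4 photoreceptor lists were lower. With a floor of 50, 11 probe sets lay above it at P60, 2 probe sets and 2 genes were higher (Rcvrn joining Gnat1), and 2032 of all genes were lower. Without a floor, 3 photoreceptor probe sets and 2 genes were higher, 7 list genes were higher and 14 lower, and 2830 of all genes were higher and 3701 lower. On those values Prph2 had a ratio of -1.61 and the second Rbp3 probe set of 2.23, both from intensities under the floor. With a pseudocount of 100, with the dimmest probe set of each gene, or with the median of its probe sets, 2 list genes were higher each time, and with the dimmest 879 of all genes were. At a limit of 1.5-fold, 3 probe sets and 3 genes of the photoreceptor set were higher and 5 genes lower, beside 2960 and 2622 of all genes. At 3-fold, 2 list genes were higher and 4 lower, beside 551 and 405 of all genes. The 2 other scalings moved the median of all genes to -0.02 and 0.04 and changed none of these counts by over 1.5 times, although the 1 higher gene of the rod list was lost under both. No paired analysis was possible because each age has 1 array. Ratios near the floor limit what can be said of Pde6b, Rcvrn and Crx.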
